A study of Mus musculus with 32 samples.

Results

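The RNA that sedimented with polysomes in NMuMG cells was compared between TGFβ-treated and untreated cells, on 4 of the 32 arrays of the study. NMuMG is an established epithelial line from normal mouse mammary gland, used here as wild type, and TGFβ2 was given at 5 ng/ml for 24 h. The 4 arrays were chosen by their deposited titles, 2 of the untreated and 2 of the treated polysomal pool, and monosomal arrays entered no comparison, only the filter on low values and an alternative fit. The treated and untreated cells grew in the same medium with serum and insulin. Total RNA of NMuMG cells with and without TGFβ (2 arrays each) and the polysomal pool of E1KD cells with and without TGFβ (2 arrays each) served for 2 further comparisons. E1KD is an NMuMG derivative in which hnRNP E1, the RNA-binding protein encoded by Pcbp1, is knocked down, and which is described as mesenchymal without TGFβ. The 2 arrays of a group are called biological replicates, and whether they came from separate cultures is not said, so a p-value here covers the spread of these arrays alone, which may be technical. The deposited values are log2 signals, and every level and difference below is on that scale unless it is called a fold.

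An mRNA that carries several ribosomes sediments fast through sucrose, so the polysomal pool holds mainly mRNAs in translation. Its content depends both on how much of an mRNA the cell holds and on what share of it is loaded with ribosomes. TGFβ binds a pair of serine/threonine kinase receptors that phosphorylate Smad proteins, and in NMuMG cells it is known for inducing an epithelial-mesenchymal transition, in which epithelial junctions are lost and matrix and actin genes are induced. RNA of a bulk culture was measured, in which fewer cells of a type and less RNA per cell cannot be told apart.

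The replicate arrays correlated at r = 0.983 (untreated) and 0.991 (TGFβ) across probe sets, and the SD between replicates, taken over probe sets, was 0.28 and 0.20. The epithelial keratins Krt8 and Krt18 were near the top of the scale in all 4 arrays (means 13.98 and 14.46), and Cdh1, which encodes E-cadherin, had a mean of 10.51. Of 12 defining markers of blood, endothelial, liver, glial, fat and muscle cells 11 had a usable probe set, and 4 of these (Cd68, Gfap, Sox10 and Des) exceeded 5.52, the overall median, in all 4 arrays. The summed level of these markers ran from 9.63 to 9.94 in the untreated and from 9.48 to 9.61 in the treated arrays, and the pan-leukocyte marker Ptprc had a mean of 3.69. Bacterial poly-A RNAs, which are added to the sample before labelling, had means of 11.82 and 12.09 in the untreated and 10.97 and 11 in the treated arrays. All 12 of these probe sets were lower in both treated arrays, by 0.27 to 1.45 (mean difference -0.97). The mean of the Actb and Gapdh probe sets was 11.70 and 12.04 in the untreated and 11.70 and 11.72 in the treated arrays. Of 3 probe sets for 18S rRNA, that of the middle part was at 11.69 and 12.7 without and 13.3 and 13.32 with TGFβ, a difference of 1.11 with no overlap, and the others differed by 0.57 and 0.08, while the B1 repeat differed by -0.63. Hybridization controls, added after labelling, had a mean of 9.77 in the first untreated array, 11.42 in the second and 10.89 and 11.06 in the treated ones. With that first untreated array left out, 1987 genes were called higher and 765 lower. Scaling each array on Actb and Gapdh moved the median difference of all genes from 0.015 to 0.18, and scaling on the poly-A RNAs moved it to 0.98, so that under the latter scaling each decrease smaller than 0.97 became an increase. Differences are therefore to be read relative to the median of all genes. The part of these control levels in the results was not tested.

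TGFβ changed 2802 of 12600 genes in the polysomal pool, 1829 higher (14.5% of the genes tested) and 973 lower (7.72%), at an adjusted p under 0.05 in limma. The median difference was 0.84 among the genes called higher and -0.78 among those called lower, and 595 of the former and 238 of the latter changed by at least 2-fold. The smallest difference called was 0.43. Without the first TGFβ array 618 genes were higher (4.9%) and 337 lower (2.67%), and without the second 588 (4.67%) and 247 (1.96%), which are the shares to set beside counts of a group with the same array left out. With these 4 arrays fitted alone, 1040 were higher and 505 lower. The share of increases depended on the scaling: 67.1% of the probe sets called were higher as deposited, 54.9% after quantile scaling, 54.2% after median scaling, 88.2% after Actb and Gapdh scaling and 99.8% after poly-A scaling. Both TGFβ arrays lay above both untreated arrays for 33.2% of all genes and below them for 28.3%.

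The 15 largest increases included secreted factors, a zinc finger protein and metabolic enzymes. Klhl30, a kelch-like protein, was at 4.44 and 5.52 in the untreated and 9.06 and 9.03 in the treated arrays, an increase of 4.07 (SE 0.31, adjusted p = 0.000871). Its untreated arrays were at or below the overall median of 5.52, where signals are dim and a difference on this scale can be understated. Flacc1, which encodes a coiled-coil protein, was at 5.67 and 5.52 without and 8.74 and 8.89 with TGFβ (3.22, SE 0.14, adjusted p = 0.000484). Bnc1, which encodes basonuclin 1, a zinc finger protein of basal epithelial cells, was at 6.89 and 5.83 without and 9.47 and 9.58 with TGFβ (3.17, SE 0.31, adjusted p = 0.00155). For all 3 genes the 2 treated arrays lay close together and above the untreated ones, which differed more from each other for Klhl30 and Bnc1. Csf2, the cytokine GM-CSF, was at 6.60 and 5.81 without and 9.14 and 9.25 with TGFβ (2.99, SE 0.24, adjusted p = 0.00098). Vegfc, a growth factor of lymphatic endothelium, was at 7.90 and 8.25 without and 10.69 and 10.70 with TGFβ (2.62, SE 0.15, adjusted p = 0.000542). S100a8, a subunit of the calcium-binding protein calprotectin, was at 7.59 and 7.21 without and 10.23 and 10.21 with TGFβ (2.82, SE 0.20, adjusted p = 0.000739). None of these groups overlapped, which was a condition for choosing the 15 genes. The other increases were Ctla2b (3.02), Bcl2l15 (2.88), the phosphodiesterase gene Pde7a (2.83), Thbs1 (2.78), Mab21l4 (2.72), the procollagen-processing enhancer Pcolce2 (2.65), the adenylate kinase gene Ak1 (2.63), Dipk1a (2.51) and Pdgfa (2.51).

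The 15 largest decreases included plasma carrier proteins, a semaphorin and a semaphorin co-receptor. Lcn2, the iron-siderophore carrier lipocalin 2, was at 7.38 and 7.88 in the untreated and 4.76 and 4.47 in the treated arrays (-3.02, SE 0.23, adjusted p = 0.000871). Nrp1, a co-receptor of semaphorins and VEGF, was at 8.80 and 8.31 without and 6.12 and 5.89 with TGFβ (-2.55, SE 0.22, adjusted p = 0.00116). It stands by the brightest of its probe sets, which disagreed on its difference against total RNA, given below. Hpx, the heme carrier hemopexin, was at 12.82 and 12.76 without and 10.65 and 10.55 with TGFβ (-2.19, SE 0.13, adjusted p = 0.000542). The treated arrays of Lcn2, and those of Hs6st2 below, were under the overall median of 5.52. In each of the 3 genes both treated arrays lay below both untreated ones, which was a condition for choosing the 15 genes. Hpx was still among the brighter genes after treatment. The other decreases were Ugt2b34 (-2.53), the antitrypsin gene Serpina1c (-2.42), the endonuclease subunit Slx1b (-2.33), Mettl7b (-2.29), Vstm5 (-2.29), Hs6st2 (-2.22), Fam107a (-2.21), Sorbs2 (-2.10), the semaphorin Sema3c (-2.09), the glycogen-binding protein Stbd1 (-2.06), Prr32 (-1.98) and Fgfbp1 (-1.98). Of these Fam107a did not pass without either TGFβ array (-2.17 and -2.24) or without the first untreated array (-2.0).

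**Figure D1:**
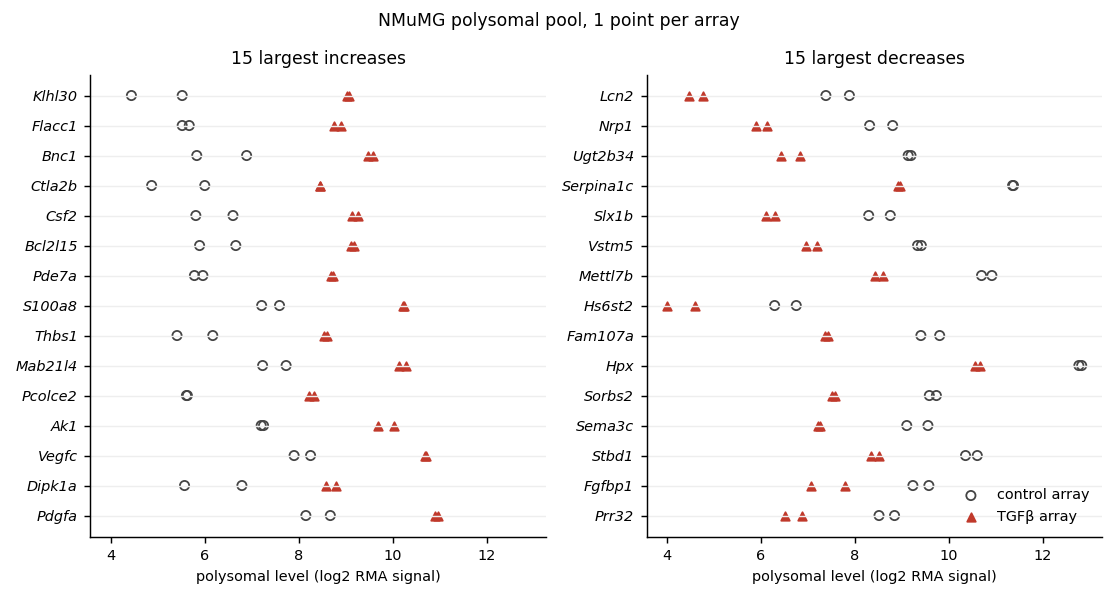
Deposited log2 signal of the 15 genes with the largest increase and the 15 with the largest decrease in the polysomal pool, 1 point per array for 2 untreated and 2 TGFβ-treated arrays. The genes were chosen among those with both treated arrays on the same side of both untreated arrays, and run from Klhl30 (4.07 higher) to Lcn2 (3.02 lower).

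Of the 15 largest increases 11 have a promoter window in RefSeq, from 250 bases before to 50 after the start, and 4 of these held the AP-1 motif TGANTCA on either strand (Ak1, Ctla2b, Flacc1 and Mab21l4, 36.4%). It was present in 7.81% of all 32851 promoter windows given. Of the TGFβ-induced targets that rose 1 of 10 with a window held it, and of the mitotic genes that rose 0 of 16. These 11 genes were picked for the size of their increase, and the part of AP-1, the dimer of Jun and Fos proteins, in any change was not tested. The window of Flacc1 (RefSeq, GRCm38.p6, chr1:58692396-58692695, minus strand) is shown because Flacc1 had the largest increase among these 4 genes, with the motif in capitals. A match is a description of the letters in the window.
Flacc1: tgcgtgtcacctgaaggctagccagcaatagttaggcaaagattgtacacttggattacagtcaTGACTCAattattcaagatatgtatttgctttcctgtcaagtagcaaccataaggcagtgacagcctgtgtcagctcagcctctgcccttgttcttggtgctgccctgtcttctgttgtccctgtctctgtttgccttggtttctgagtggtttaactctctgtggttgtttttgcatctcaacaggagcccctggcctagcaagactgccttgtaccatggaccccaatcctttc

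Known targets of TGFβ were higher in the polysomal pool of treated cells. Of 31 measured TGFβ-induced targets 20 rose (64.5%) and 1 fell (3.23%), against 14.5% and 7.72% of all genes. Their median difference was 1.00 against 0.015 over all genes. Thbs1, which encodes thrombospondin 1, an activator of latent TGFβ, was at 6.17 and 5.41 in the untreated and 8.59 and 8.54 in the treated arrays (2.78, SE 0.35, adjusted p = 0.00313). Jun was at 5.40 and 5.15 without and 7.76 and 7.53 with TGFβ (2.37, SE 0.17, adjusted p = 0.00076). Itgb6, the beta subunit of an integrin that frees TGFβ from its latent complex, was at 5.36 and 5.46 without and 7.80 and 7.51 with TGFβ (2.25, SE 0.24, adjusted p = 0.00193). The treated and untreated arrays of these genes did not overlap, and both untreated arrays of Jun and of Itgb6 were dim, under the overall median of 5.52. The growth factor gene Pdgfa, named above, completes the 4 largest. The gene that fell was Plaur, the urokinase receptor (-0.84), chosen for naming after its value was seen, and it did not pass without the first (-0.86) or second (-0.82) TGFβ array.

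Of 33 components of the TGFβ and BMP pathway 16 rose (48.5%) and 1 fell (3.03%), with a median of 0.45. Of all genes 14.5% rose and 7.72% fell. Among ligands and their carriers, Inhba, the subunit of activin A, was at 8.16 and 8.17 without and 9.54 and 9.50 with TGFβ (1.36, SE 0.12, adjusted p = 0.00119). Ltbp1, which tethers latent TGFβ to the matrix, was at 6.05 and 6.18 without and 7.62 and 8.07 with TGFβ (1.73, SE 0.17, adjusted p = 0.00166). Twsg1, a secreted modulator of BMP, rose from 8.66 and 8.28 to 9.82 and 9.75 (1.31, SE 0.17, adjusted p = 0.0038). These 3 genes encode secreted proteins, and in each the arrays were apart. Among receptors, Acvr1, a type I receptor of activin and BMP, was at 8.76 and 8.43 without and 10.61 and 10.58 with TGFβ (2.00, SE 0.15, adjusted p = 0.000871). Of the 4 Id genes, inhibitors of differentiation and known targets of BMP, 2 fell. Id3 fell from 8.34 and 8.02 to 6.65 and 6.24 (-1.74, SE 0.18, adjusted p = 0.00189). Id2 fell from 11.53 and 11.76 to 10.62 and 10.50 (-1.08, SE 0.15, adjusted p = 0.00394). Id1 (0.13) and Id4 (-0.65) did not pass. Without the first or second TGFβ array 10 and 9 pathway components rose.

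Of 36 epithelial genes 4 rose (11.1%) and 3 fell (8.33%), with a median of 0.03, shares close to the 14.5% and 7.72% of all genes. Krt19, a simple-epithelial keratin, fell from 13.21 and 13.04 to 11.87 and 11.86 (-1.26, SE 0.13, adjusted p = 0.00178), whereas the tight-junction gene Cldn4 rose from 7.35 and 6.58 to 8.57 and 8.40 (1.52, SE 0.32, adjusted p = 0.0163). Of 18 mesenchymal genes 7 rose (38.9%) and 1 fell (median 0.09). The transcription repressor Zeb2 was at 5.10 and 5.09 without and 7.33 and 6.77 with TGFβ (1.96, SE 0.24, adjusted p = 0.00292), and Zeb1 rose by 1.05 (SE 0.13, adjusted p = 0.00314). The neural cell adhesion molecule Ncam1 rose from 7.20 and 6.99 to 8.33 and 8.44 (1.29), and fibronectin (Fn1) from 8.57 and 8.38 to 9.77 and 9.77 (1.29). Both untreated arrays of Zeb2 were under the overall median of 5.52. Probe sets of Zeb2 and Ncam1 disagreed, with medians over them of 0.26 and 0.01. Cldn4 did not pass without either TGFβ array (1.44 and 1.60) or the second untreated array (1.14). Other genes of the transition had differences below the threshold: Cdh1 0.12, the tight-junction scaffold Tjp1 -0.02, Vim 0.20, N-cadherin (Cdh2) -0.28 (-0.66 and past it without the second untreated array) and Snai1 -0.03. Without the first or second TGFβ array 4 and 4 mesenchymal genes rose, and at most 1 epithelial gene passed in each direction.

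Of 53 genes of the actin cytoskeleton and focal adhesions 16 rose and 1 fell (median 0.25), and without the first or second TGFβ array 5 and 5 rose. The largest were the phosphoinositide kinase gene Pip4k2a (2.29), the focal adhesion adaptor Lims1 (1.54), and the actin-binding proteins Cald1 (1.20) and Tpm4 (1.14). Of 13 integrin subunits 4 rose (30.8%) and 2 fell (15.4%), against 14.5% and 7.72% of all genes. These shares were 30.2% and 1.89% for the actin and focal adhesion genes, and 23.5% and 11.8% for the matrix and protease genes below. Itgb1, the common beta subunit, rose from 7.86 and 7.76 to 8.81 and 8.79 (0.99), and Itga3, its partner in laminin binding, fell by 1.01. Neither Cald1 (1.21 and 1.19) nor Itga3 (-0.96 and -1.06) passed without the first or the second TGFβ array, and Itga3 did not without the second untreated array (-0.66) or by the median of its probe sets (-0.62). Of 34 matrix and protease genes 8 rose and 4 fell (median -0.07), and without either TGFβ array 4 rose. Lamb3, a chain of a basement membrane laminin, was at 7.52 and 7.20 without and 9.77 and 9.74 with TGFβ (2.40, SE 0.15, adjusted p = 0.000542).

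Genes of the unfolded protein and integrated stress response were lower in the polysomal pool of treated cells. These responses sense misfolded protein in the endoplasmic reticulum (ER) or lack of amino acids, reduce general translation through phosphorylated eIF2α, and induce chaperones and amino acid enzymes through ATF6, XBP1 and ATF4. Of 43 measured members 16 fell (37.2%) and 1 rose (2.33%), against 7.72% and 14.5% of all genes. Their median was -0.34, which is 0.36 below the median of all genes. Under poly-A scaling the direction turned, with 4 members higher and none lower, and under Actb and Gapdh scaling 6 fell and 1 rose. Both scalings shift every gene of an array alike, so the distance to the median of all genes is -0.36 under both by construction. Quantile scaling is not bound in this way and gave a distance of -0.31. After quantile scaling 18 fell and 1 rose, and without the second TGFβ array 10 fell and 1 rose.

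Atf5, a transcription factor translated under stress, was at 12.58 and 12.55 in the untreated and 11.08 and 11.04 in the treated arrays (-1.5, SE 0.12, adjusted p = 0.00101). Ddit3, the stress transcription factor CHOP, was at 13.02 and 12.96 without and 11.65 and 11.59 with TGFβ (-1.37, SE 0.12, adjusted p = 0.00116). Sdf2l1, an ER chaperone cofactor, was at 12.54 and 12.35 without and 11.12 and 11.12 with TGFβ (-1.32, SE 0.15, adjusted p = 0.00258). All 3 were bright in every array, and replicates lay close together. A further probe set of Ddit3 disagreed in direction, and the median of both was -0.41. Creld2, an ER-resident disulfide isomerase, was at 12.55 and 12.72 without and 11.58 and 11.59 with TGFβ (-1.05, SE 0.13, adjusted p = 0.00325). In total RNA the same 4 genes differed by -0.24, -0.03, -0.04 and 0.07, and none passed there. The other members that fell, named after their values were seen, were the ER proteins Herpud1 (-1.03), Calr (-1.02), Hyou1 (-0.92) and P4hb (-0.50), the eIF2α phosphatase subunit Ppp1r15a (-0.94), the factors Atf3 (-0.86) and Trib3 (-0.84), and Shmt2 (-0.91), Asns (-0.84), Phgdh (-0.62), Slc7a5 (-0.65) and Vldlr (-0.75). The member that rose was Eif2ak4 (1.02), the kinase GCN2 that senses amino acid lack, which did not pass without the first TGFβ array (0.67) or without either untreated array (0.96 and 1.08). Among those that fell, P4hb (-0.50 and -0.50), Phgdh (-0.60 and -0.66) and Slc7a5 (-0.65 and -0.64) did not pass without the first or the second TGFβ array, nor P4hb without the first untreated array (-0.46). Asns did not without the first TGFβ array (-0.77), and Atf3 (-0.72), Shmt2 (-0.86) and Vldlr (-0.64) did not without the second. Hspa5, the ER chaperone BiP, differed by 0.07, Hsp90b1 by 0.05 and Atf4 by -0.27, none past the threshold.

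Promoter windows of this group were searched for motifs known from stress responses, and 4 are shown because their genes fell together. The ER stress response element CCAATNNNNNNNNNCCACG, searched on both strands, was present in 0.119% of all promoter windows and in 8 of the 38 measured members with a window (21.1%), of which Creld2 and Calr fell. It was thus present in 2 of the 14 members that fell and have a window (14.3%). The core TGATGNAA of the site bound by ATF4 complexes was present in 3.97% of all windows and in 7 of the 38 measured members (18.4%). Of the 14 that fell 5 held it (35.7%), namely Asns, Atf3, Herpud1, Trib3 and Vldlr. The windows of Creld2 (chr15:88819396-88819695, plus strand), Calr (chr8:84846882-84847181, minus strand), Asns (chr6:7693160-7693459, minus strand) and Trib3 (chr2:152344011-152344310, minus strand) are from RefSeq on GRCm38.p6. Capitals mark the ER stress response element in the first pair and the ATF4 core in the others.
Creld2: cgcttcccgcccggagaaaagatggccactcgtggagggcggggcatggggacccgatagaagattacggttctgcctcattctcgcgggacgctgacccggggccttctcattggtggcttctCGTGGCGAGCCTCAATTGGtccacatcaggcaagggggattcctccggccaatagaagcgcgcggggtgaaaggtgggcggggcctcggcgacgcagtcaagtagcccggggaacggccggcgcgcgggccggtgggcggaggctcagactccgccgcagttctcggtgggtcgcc
Calr: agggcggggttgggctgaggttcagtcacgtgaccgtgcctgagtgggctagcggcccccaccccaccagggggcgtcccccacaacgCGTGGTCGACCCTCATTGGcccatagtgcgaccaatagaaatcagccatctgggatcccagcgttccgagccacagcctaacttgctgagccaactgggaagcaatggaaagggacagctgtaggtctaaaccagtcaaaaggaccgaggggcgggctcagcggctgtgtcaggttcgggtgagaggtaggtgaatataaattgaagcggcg
Asns: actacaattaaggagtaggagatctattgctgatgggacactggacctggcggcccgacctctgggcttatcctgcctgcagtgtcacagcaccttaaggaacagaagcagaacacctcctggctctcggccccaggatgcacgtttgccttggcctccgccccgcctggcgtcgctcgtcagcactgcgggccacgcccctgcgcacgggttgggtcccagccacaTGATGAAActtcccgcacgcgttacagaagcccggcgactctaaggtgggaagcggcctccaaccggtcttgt
Trib3: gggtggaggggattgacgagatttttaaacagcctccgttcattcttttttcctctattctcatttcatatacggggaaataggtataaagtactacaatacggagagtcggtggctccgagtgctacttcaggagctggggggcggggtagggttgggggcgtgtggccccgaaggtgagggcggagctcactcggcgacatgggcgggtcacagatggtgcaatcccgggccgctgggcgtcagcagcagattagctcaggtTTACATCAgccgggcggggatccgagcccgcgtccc

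Mitotic genes were higher in the polysomal pool of treated cells. Of 55 measured members, which include cyclins, kinetochore proteins and mitotic kinesins, 20 rose (36.4%) and 1 fell (1.82%). Their median was 0.54, and of all genes 14.5% rose and 7.72% fell. In total RNA of the same cell line no member passed in either direction (median -0.03). Birc5, the chromosomal passenger survivin, was at 9.64 and 8.98 in the untreated and 10.68 and 10.63 in the treated arrays (1.34, SE 0.21, adjusted p = 0.00625). Ccna2, which encodes cyclin A2, was at 9.63 and 9.38 without and 10.78 and 10.78 with TGFβ (1.27, SE 0.14, adjusted p = 0.00219). Ccnb2, which encodes cyclin B2, was at 8.77 and 8.52 without and 9.79 and 9.91 with TGFβ (1.21, SE 0.15, adjusted p = 0.00294). The spindle checkpoint kinase gene Bub1 rose by 1.17 (SE 0.26, adjusted p = 0.0202), and its untreated arrays, at 7.71 and 6.88, differed more than those of the cyclins. When the first or the second TGFβ array was left out, Bub1 (1.06 and 1.27), Kif11 (-1.04 and -0.94) and Pcna (1.0 and 1.02) did not pass. The member that fell, named after its value was seen, was the kinesin Kif11 (-0.99), whose probe sets disagreed, with a median over them of 0.12. Without the first or second TGFβ array 10 and 8 members rose and none fell. Of 46 DNA replication genes 6 rose (13.0%) and 4 fell (8.70%), shares close to those of all genes (14.5% and 7.72%), and 4 and 3 rose and none fell with the first or the second TGFβ array left out. The 6 genes included the origin protein Orc6 (1.09), Gins1 (1.07), the helicase subunit Mcm6 (1.02) and Pcna (1.01).

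The cell cycle genes homology region core TTTGAA, bound by the complex that represses cell cycle genes in resting cells, was present in 17.9% of all promoter windows. Of the 45 measured mitotic genes with a window 32 held it on either strand (71.1%), and of the 16 that rose 9 did (56.2%). The window of Ccnb2 (RefSeq, GRCm38.p6, chr9:70421505-70421804, minus strand) holds it at 2 positions, shown in capitals.
Ccnb2: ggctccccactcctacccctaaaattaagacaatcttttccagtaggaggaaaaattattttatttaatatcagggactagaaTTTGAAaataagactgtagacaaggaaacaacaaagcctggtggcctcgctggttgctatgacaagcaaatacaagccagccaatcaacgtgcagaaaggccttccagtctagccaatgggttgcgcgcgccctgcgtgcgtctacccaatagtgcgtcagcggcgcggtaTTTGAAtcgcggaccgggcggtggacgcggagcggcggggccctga

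Genes of protein degradation were higher in the polysomal pool of treated cells. Of 76 genes of ubiquitin conjugation and ligation, including the anaphase-promoting complex, 30 rose (39.5%) and none fell (median 0.45). Of all genes 14.5% rose and 7.72% fell. The ubiquitin-conjugating enzyme Ube2d1 was at 6.83 and 6.81 without and 8.51 and 8.26 with TGFβ (1.56, SE 0.25, adjusted p = 0.00625). The F-box protein Fbxw7, which targets cyclin E and Myc, was at 4.57 and 5.29 without and 6.22 and 6.36 with TGFβ (1.36, SE 0.30, adjusted p = 0.0193). Skp2, the F-box protein that targets the inhibitor p27, was at 5.80 and 5.95 without and 7.12 and 6.91 with TGFβ (1.14, SE 0.17, adjusted p = 0.005), whereas its total RNA fell by 0.56. The median over the 6 probe sets of Skp2 was 0.47. The groups did not overlap for any of these, and Fbxw7 was dim in the untreated cells. Fbxw7 did not pass without the first (1.43) or second (1.29) TGFβ array or without the first untreated array (1.0). Of 40 proteasome genes 14 rose (35.0%) and 1 fell (2.5%), with a median of 0.33. The base ATPase Psmc1 was at 7.13 and 7.0 without and 8.72 and 8.65 with TGFβ (1.62, SE 0.14, adjusted p = 0.00111), and Psmd1, a base scaffold, rose by 1.30. Without the first or second TGFβ array 6 and 6 ubiquitin genes and 8 and 6 proteasome genes rose.

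**Figure D2:**
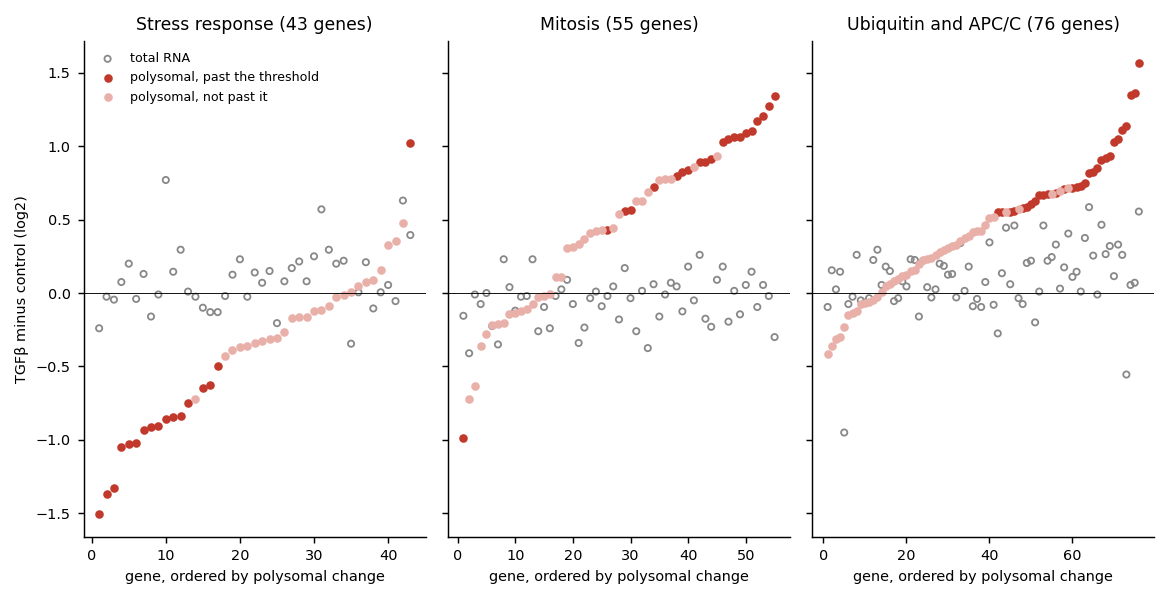
Difference after TGFβ (TGFβ minus untreated, log2, mean of 2 arrays each) for members of the stress response, mitosis and ubiquitin groups. Genes are ordered by polysomal change, with 1 polysomal and 1 total RNA point per gene. Polysomal points of mitotic and ubiquitin genes lie mostly above 0 (medians 0.54 and 0.45) and those of stress genes below it (median -0.34). The total RNA medians are -0.03, 0.12 and 0.08.

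Of 68 splicing factors and hnRNPs 19 rose (27.9%, against 14.5% of all genes) and 1 fell (median 0.23), led by the polypyrimidine tract binding protein Ptbp2 (1.26), the splicing kinase Clk1 (1.15), Rbm25 (1.14) and Ptbp3 (1.08). Of 73 chromatin and transcription regulators 18 rose (24.7%) and 3 fell (median 0.25), led by Zeb2, the insulator protein Ctcf (1.34), Zbtb44 (1.11, but 0.45 by the median of its probe sets) and, among those that fell, the 5-methylcytosine dioxygenase Tet2 (-1.06). With the first or the second TGFβ array left out 3 and 3 splicing genes and 4 and 7 chromatin genes rose, against 4.9% and 4.67% of all genes, so that the splicing genes were then close to the share of all genes, and without the second untreated array 12 and 10 did. Ptbp2 (1.35 and 1.17) and Ptbp3 (1.03 and 1.13) did not pass without the first or the second TGFβ array, nor Tet2 without the second (-0.90).

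Few genes of the cytosolic translation machinery passed in the main fit, in which 14.5% of all genes rose and 7.72% fell. This depended on the fit. With an intensity trend 9 of the 44 ribosomal protein genes rose and 2 fell, and 13 of the 46 translation factors rose and 13 fell. Of the 70 oxidative phosphorylation genes 10 then rose and 20 fell, and of all genes 19% and 10.8%. With 16 arrays in the fit 14 translation factors rose and 8 fell, against 23.1% and 14.9% of all genes. Of 44 measured cytosolic ribosomal protein genes 1 changed, Rps27, which fell from 10.61 and 10.13 to 9.31 and 8.86 (-1.28, SE 0.21, adjusted p = 0.00736), and the median was 0.01. Without the second TGFβ array Rps27 did not pass (-1.06). Of 80 genes of this list 44 were measured by a probe set of 1 symbol, so that many ribosomal protein genes, which have pseudogene copies, were not counted. Of 46 translation factors 4 rose and 2 fell, with differences of at most 0.68 (Eif2b3, which at 0.70 and 0.64 did not pass without the first or second TGFβ array, nor at 0.53 without the second untreated array). The elongation factor Eef1a1 was at 14.37 and 14.34 without and 14.40 and 14.40 with TGFβ (0.04). Of 18 aminoacyl-tRNA synthetases 4 rose and 3 fell, from the arginine enzyme Rars (1.43) to the tryptophan enzyme Wars (-1.05). Of 74 mitochondrial ribosomal proteins 11 rose (14.9%, close to the share of all genes) and 18 fell (24.3%), with a median of -0.11. They ran from Mrpl47 (1.42, but -0.21 by the median of its probe sets) to Mrpl37 (-1.06). With the first or the second TGFβ array left out 3 and 4 of these rose and 4 and 4 fell, and without the first untreated array 11 fell. Of 70 oxidative phosphorylation genes 4 rose and 3 fell. With the first or the second TGFβ array left out 1 and 1 of these rose and none fell, and of the synthetases 1 and 2 rose and 2 and 1 fell. Without either TGFβ array no translation factor passed.

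The counts of immediate early genes, cytokines and metabolic genes are to be read against the 14.5% of all genes that rose and the 7.72% that fell. Of 31 AP-1 and immediate early genes 11 rose and 2 fell (median 0.19). The MAP kinase phosphatase Dusp7 was at 7.37 and 8.03 without and 10.17 and 9.85 with TGFβ (2.31, SE 0.24, adjusted p = 0.00178), while the growth response factor Egr1 fell from 8.02 and 7.73 to 6.19 and 5.89 (-1.83, SE 0.16, adjusted p = 0.00116). Without the first or second TGFβ array 5 and 5 of these rose. Of 59 cytokines, growth factors and receptors 17 rose and 8 fell, among them the interleukin 6 family cytokine Lif, at 6.81 and 6.73 without and 8.98 and 8.94 with TGFβ (2.19, SE 0.17, adjusted p = 0.000872). Of 30 glycolysis and hypoxia genes 6 rose and 7 fell, with hexokinase 2 (Hk2) higher by 1.53 and Pfkfb3 by 1.41. Of 31 glutathione and NRF2 genes 4 rose and 7 fell, from thioredoxin (Txn1, 1.20, but 0.49 by the median of its probe sets) to Gsta2 (-1.33). The NRF2 target Hmox1 fell by 0.90. Gsta2 did not pass without the first or second TGFβ array (-1.24 and -1.42), nor Hmox1 and Ddost, named next, without the second (-0.76 for each). Of 31 genes of cholesterol and fatty acid synthesis 7 rose and 5 fell, with squalene epoxidase (Sqle) higher by 1.31 and Mvd lower, at -0.95. Of 50 secretory pathway genes 6 rose and 7 fell, and the largest decreases were in Ssr2 (-1.11), Rpn2 (-0.92) and Ddost (-0.81), which act in translocation and N-glycosylation at the ER. Of 30 cytosolic chaperones 8 rose and 2 fell, of 51 ribosome biogenesis genes 8 and 9, of 21 G1 cyclins and CDK inhibitors 4 and 1, and of 21 interferon-stimulated genes 1 and 4. Of 20 noncoding RNAs 3 rose and 2 fell, among the former the nuclear RNA Neat1, at 10.17 and 9.96 without and 11.54 and 11.59 with TGFβ (1.5, SE 0.14, adjusted p = 0.0013). Without the first or second TGFβ array 3 and 5 cytokine genes fell, and the other groups described here had at most 6 higher and 3 lower.

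**Figure D3:**
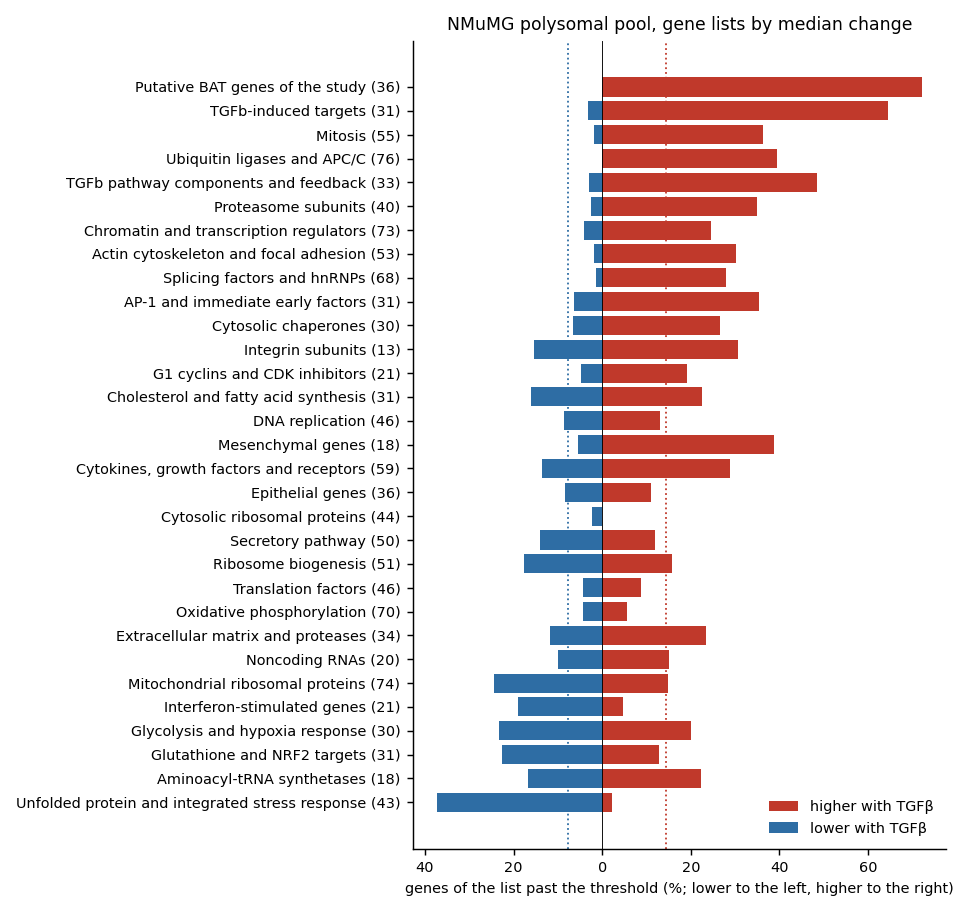
Percent of the measured members of each gene group that were higher or lower in the polysomal pool after TGFβ (limma adjusted p under 0.05), with dotted lines at 14.5% and 7.72%, the shares over all 12600 genes. TGFβ-induced targets (20 of 31 higher) and ubiquitin genes (30 of 76) stand above the line for higher, and stress response genes (16 of 43) above the line for lower.

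Genes that rose and genes that fell are described next by length, level and promoter. The median genomic span was 28.3 kb for genes that rose, 13.0 kb for those that fell and 21.9 kb for all genes. The median untreated level was 8.37, 9.65 and 7.72, and the median promoter GC content was 63.0%, 60% and 60.7%. The untreated level also enters the difference by which genes were called, so it is not independent of the call. All these values are descriptions over genes, which are not independent replicates.

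Genes named by the study were measured in the same way. The study chose 36 putative targets of hnRNP E1 and TGFβ on arrays that include these, so their direction is no independent evidence. Among other criteria, it filtered on the change in the ratio of polysomal to monosomal signal. Only the polysomal level is compared here, so the differences below are not the study's measure and do not test it. Of these 36 genes 26 were higher (72.2%, against 14.5% of all genes) and none lower (median 1.02). Without the first or second TGFβ array the median was 0.98 and 1.02, and fewer of the genes passed. Fam3c, which encodes the interleukin-like EMT inducer, was at 11.10 and 10.63 without and 11.69 and 11.66 with TGFβ (0.81, SE 0.18, adjusted p = 0.0184). The calpain inhibitor Cast was higher by 1.08, moesin (Msn) by 0.72 and Mlf1 by 2.19. Fam3c (0.80 and 0.82), Cast (1.03 and 1.12) and Msn (0.73 and 0.71) did not pass with the first or the second TGFβ array left out. Eif5a2 was at 8.33 and 8.12 without and 8.82 and 8.67 with TGFβ (0.52, SE 0.17, adjusted p = 0.0679), which did not pass although the arrays were apart. Dab2 (-0.04), Egfr (-0.17), Akt2 (-0.18) and Actb (0.05) did not pass, and Hsp90aa1 was lower (-0.61, adjusted p = 0.0452) by the probe set taken but at 0.44 by the median of its probe sets, and did not pass without either TGFβ array (-0.52 and -0.71) or the second untreated array (-0.40). Pcbp1 was at 13.15 and 13.25 without and 13.22 and 13.21 with TGFβ (0.02). Gapdh and Hsp90ab1 had no probe set of 1 symbol among those kept.

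Total RNA of the same cell line was set beside the polysomal pool to ask which changes followed the amount of mRNA. In total RNA 551 genes rose (4.37%) and 436 fell (3.46%). Of the genes that rose in the polysomal pool 353 also rose in total RNA, which is 19.3% of the polysomal and 64.1% of the total increases. Of the genes that fell 155 fell in both, 15.9% of the polysomal and 35.6% of the total decreases. Another 1445 polysomal increases and 812 decreases did not pass in total RNA, and 37 genes were called in opposite directions. The SD of the differences over genes was 0.54 in the polysomal pool and 0.33 in total RNA, and the 2 sets correlated at r = 0.45 across 12600 genes. The arrays of the 2 kinds of RNA are separate, and a call in one and not in the other was not by itself taken as a difference. Total RNA was tested in the fit of 16 arrays, in which both kinds of RNA share the estimate of spread. The SD between replicates was 0.12 in both NMuMG total groups, against 0.28 and 0.20 in the polysomal groups. Changes of total RNA may therefore be missed, and the counts of polysomal changes without one may be too high.

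The difference itself, polysomal less total, passed for 1456 genes higher (11.6%) and 828 lower (6.57%) in limma, or for 2668 probe sets higher (10.5%) and 1395 lower (5.49%). It uses the same polysomal arrays as the comparison above. Scaling on Actb and Gapdh left 251 higher and 120 lower, and poly-A scaling 158 higher and none lower. Without the second untreated total array 803 were higher and 472 lower, without the first total TGFβ array 827 and 503, and without the other total arrays 933 and 432 or 970 and 436, against 2284 in all with every array. By group, 19 of 43 stress genes were lower and none higher (median -0.41), and 14 to 22 were lower when a single NMuMG array was left out. Of 55 mitotic genes 21 were higher and 1 lower (median 0.60), of 76 ubiquitin genes 23 and none (median 0.35), and of 40 proteasome genes 11 and 3. With one or another total array left out 12 to 14 mitotic and 10 to 12 ubiquitin genes were higher, and with the first or second polysomal TGFβ array left out 13 and 14 ubiquitin genes were. Of 31 TGFβ-induced targets 10 were higher and 3 lower (median 0.38), and 7 to 12 were higher when a single array was left out. Under poly-A scaling no stress gene was called and 2 mitotic, 3 ubiquitin and 1 TGFβ-induced genes were higher.

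S100a8 had the largest such difference. Its total RNA was at 12.34 and 12.34 without and 11.17 and 11.11 with TGFβ (-1.20), while its polysomal level rose, a difference of 4.02 (SE 0.23, adjusted p = 3.7e-05). Its partner S100a9 was at 9.0 and 8.96 in total RNA without and 6.07 and 6.0 with TGFβ (-2.94), and at 6.02 and 6.13 against 6.09 and 6.41 in the polysomal pool (0.18), a difference of 3.12 (SE 0.22, adjusted p = 7.8e-05). Mcpt8 followed with 2.48, from 8.23 and 8.33 to 6.41 and 6.61 in total RNA and from 6.36 and 6.29 to 7.11 and 6.95 in the polysomal pool. All 3 fell in total RNA, while none fell in the polysomal pool, where the increase of Mcpt8 did not pass without any 1 of the 4 arrays (0.62 to 0.78). Bnc1 (2.40), Bcl2l15 (2.27), Csf2 (2.12), Flacc1 (2.10) and the SMC complex gene Smc5 (2.05) rose more in the polysomal pool than in total RNA. Smc5 was at 6.97 and 7.24 without and 9.26 and 9.31 with TGFβ in the polysomal pool, and at 10.95 and 10.97 against 11.12 and 11.06 in total RNA.

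The largest difference of the other sign was that of Gja1, the gap junction protein connexin 43. Its total RNA was at 7.24 and 7.26 without and 9.75 and 9.80 with TGFβ (2.52), whereas its polysomal level was at 9.25 and 8.62 without and 8.46 and 8.58 with TGFβ (-0.42, adjusted p = 0.225, and -0.73, which passed, without the second untreated array), a difference of -2.94 (SE 0.23, adjusted p = 0.000106). The chemokine receptor Ackr3 had a similar pattern, with total RNA at 4.90 and 4.57 without and 7.09 and 6.87 with TGFβ and polysomal levels of 5.54 and 5.71 against 5.72 and 5.75 (difference -2.13). In both genes the total RNA arrays were apart while the polysomal arrays were not called. Hs6st2 (-2.40), the oxygenase Cyp1b1 (-2.24), Nrp1 (-2.21), Slx1b (-2.19), Dock11 (-1.92) and Creld1 (-1.92) fell in the polysomal pool without a called change of total RNA, and Dock11 did not pass in that pool without either TGFβ array (-1.48 and -1.70) or the first untreated array (-1.32). Over the 4 probe sets of Nrp1 the median of this difference was -0.11. Of genes called in opposite directions, 31 rose in the polysomal pool and fell in total RNA, among them S100a8, Mcpt8, Skp2, the lysyl hydroxylase Plod2 (1.08 and -0.74) and, named after its value was seen, S100a4 (0.55 and -0.71), which did not pass in the polysomal pool without either TGFβ array (0.54 and 0.55) or the second untreated array (0.43). The reverse kind held 6 genes, among them Atf3 (-0.86 and 0.77), whose polysomal change did not pass without the second TGFβ array (-0.72).

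**Figure D4:**
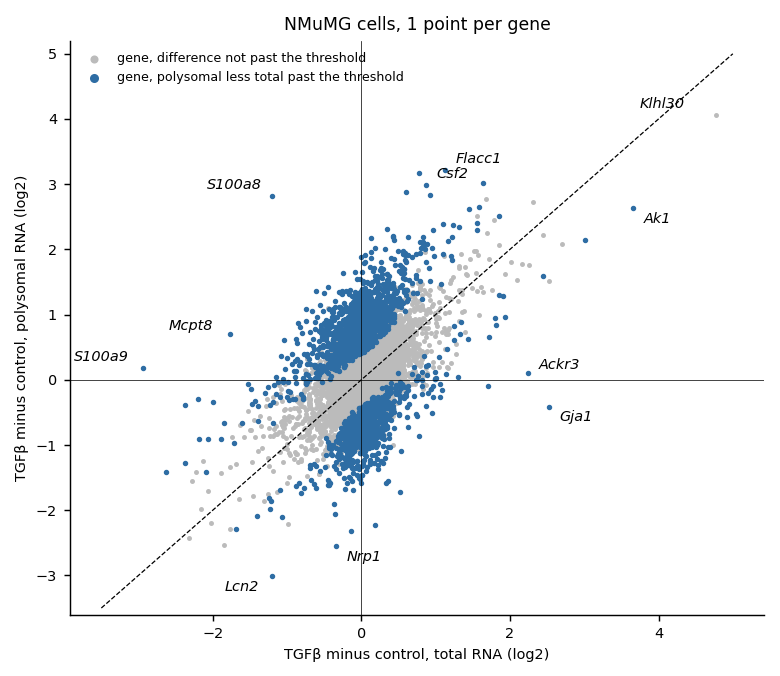
Difference after TGFβ (log2, mean of 2 arrays less mean of 2 arrays) in the polysomal pool against total RNA of NMuMG cells, 1 point per gene for 12600 genes. The spread is wider on the polysomal axis (SD 0.54 against 0.33), Klhl30 lies high on both (4.07 and 4.77), and S100a8 and Gja1 lie off the diagonal (2.82 against -1.20, and -0.42 against 2.52).

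The polysomal change was last compared with that of E1KD cells, to ask which changes depend on hnRNP E1 level as the knockdown line gives it. In E1KD cells 4 genes rose and 4 fell in the polysomal pool (0.0317% of genes each), by limma, and 1742 genes had an unadjusted p under 0.05. The SD of the differences over genes was 0.30, against 0.54 in NMuMG cells, and r across genes was 0.25. In E1KD cells the poly-A RNAs had means of 12.19 and 11.25 without and 12.13 and 11.33 with TGFβ, so that they did not move with TGFβ as they did in NMuMG cells. The difference between the lines, NMuMG less E1KD, passed for 366 genes higher (2.9%) and 235 lower (1.87%), or for 659 probe sets higher (2.59%) and 381 lower (1.5%), using the same NMuMG arrays as above. This count depended on single arrays. Against 1040 probe sets called with all arrays, 5 and 8 passed without the first or second NMuMG TGFβ array, 1 and 31 without the first or second E1KD TGFβ array and 29 and 30 without the untreated E1KD arrays, and without the second untreated NMuMG array 497. Of 43 stress genes 8 were lower and none higher.

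S100a8 again had the largest difference (5.40, SE 0.28, adjusted p = 0.00343), since it fell in E1KD cells from 8.22 and 8.49 to 5.58 and 5.98 (-2.58). Csf2 was at 5.95 and 5.84 without and 5.58 and 5.45 with TGFβ in E1KD cells (-0.38), a difference between lines of 3.37 (SE 0.34, adjusted p = 0.0112). Bcl2l15 (3.32), Klhl30 (3.28), Flacc1 (3.03) and Bnc1 (2.54) also rose more in NMuMG cells, and the untreated E1KD level of Klhl30 (9.32 and 9.53) was already above the treated level of NMuMG cells. Egr1 went opposite ways: in E1KD cells it rose from 6.72 and 6.77 to 8.31 and 8.38 (1.60, adjusted p = 0.0335), a difference of -3.44 (SE 0.23, adjusted p = 0.00519). Nrp1 (-3.02), Slx1b (-2.96), the chemokine Cxcl5 (-2.96), Hs6st2 (-2.44), Lcn2 (-2.35), Btbd11 (-2.31) and Cyp1b1 (-2.23) were lower in NMuMG cells by this measure. The value of Nrp1 is from the same probe set as above, and its probe sets disagreed in the comparison with total RNA. For the peroxiredoxin Prdx4 (2.74) and the keratin Krt7 (2.62) the larger change was in the knockdown line. Prdx4 fell there from 7.71 and 7.67 to 4.31 and 4.33, and in NMuMG cells from 11.29 and 11.50 to 10.83 and 10.70 (-0.63). Krt7 fell there from 7.62 and 8.16 to 5.14 and 5.87, and was at 11.16 and 11.11 against 11.39 and 11.35 in NMuMG cells. Btbd11 also changed more in E1KD cells, where it rose, than in NMuMG cells, where it fell. The change within NMuMG cells did not pass without either TGFβ array for Prdx4 (-0.70 and -0.56) and Btbd11 (-0.94 and -1.06), nor without the second untreated array (-0.52 and -1.16), and for Btbd11 nor without the first (-0.84).

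Of the 16 differences between the lines, that of S100a8 passed with any 1 of the 8 arrays left out (5.2 to 5.6). Those of Egr1 (-3.47) and Flacc1 (3.10) did not pass without the first E1KD TGFβ array. Prdx4 did not without that array (2.73) or the first NMuMG TGFβ array (2.68), and Slx1b did not without that E1KD array (-2.90) or either NMuMG TGFβ array (-2.87 and -3.06). Bcl2l15 (3.12 to 3.51), Klhl30 (3.17 to 3.38), Csf2 (3.31 to 3.44), Bnc1 (2.40 to 2.70), Nrp1 (-3.26 to -2.77), Hs6st2 (-2.72 to -2.15), Lcn2 (-2.54 to -2.15) and Btbd11 (-2.57 to -2.05) did not pass without any 1 of the 4 TGFβ arrays or the 2 untreated E1KD arrays. Cyp1b1 (-2.52 to -1.95) did not without any of these 6 or the second untreated NMuMG array. Cxcl5 (-3.26 to -2.65) did not without any TGFβ array or the first untreated E1KD array. Krt7 (2.25 to 2.89) did not without either NMuMG TGFβ array, the first E1KD TGFβ array, either untreated E1KD array or the second untreated NMuMG array.

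**Figure D5:**
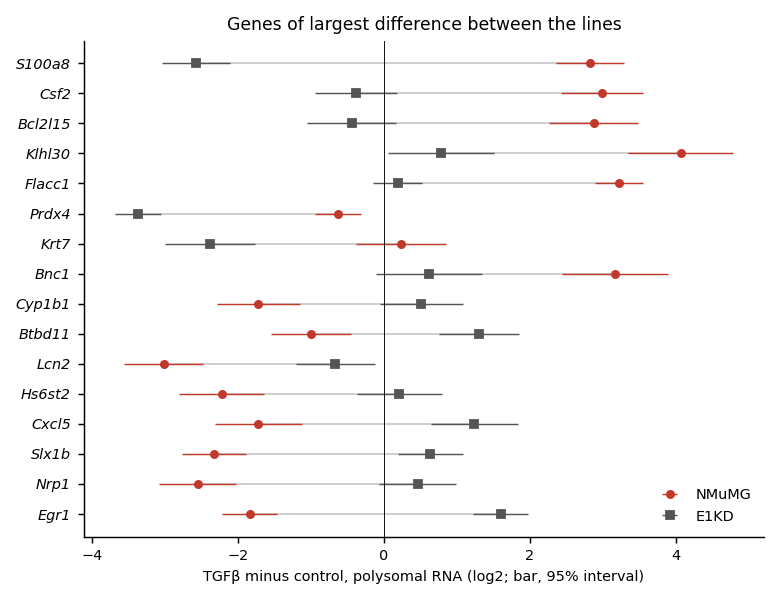
Difference after TGFβ in the polysomal pool (log2, with 95% intervals from limma, 2 arrays per group) of the 16 genes that differ most between NMuMG and E1KD cells. S100a8 rises in NMuMG cells (2.82) and falls in E1KD cells (-2.58), and Egr1 does the reverse (-1.83 and 1.60). The other genes differ in size, in sign or in 1 line.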

How the data were processed

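RNA of the polysomal pool of NMuMG and E1KD cells and total RNA of both, with and without TGFβ, were used as 16 of 32 Affymetrix Mouse Genome 430 2.0 arrays, 2 per group. The polysomal pool was taken by the authors from a sucrose gradient of cytosolic extract. The deposited values are log2 signals to 2 decimals. Per their methods and the submitters' processing notes, the authors ran RMA in Expression Console of Affymetrix. RMA brings the arrays to a shared scale, so that changes relative to other mRNAs are seen. The deposited values of the 4 arrays still differed in level, with medians of 5.61 to 5.68 over all probe sets and 7.07 to 7.19 over those kept. The number of arrays limits the precision.

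Samples were grouped by deposited titles and source names. Probe sets that exceeded the overall median of 5.52 in 8 or more of the 32 arrays were kept, in place of the MAS5 detection calls that the study used, which are not used here. This left 25432 of 45101 probe sets, of which 22090 have 1 gene symbol in the platform annotation, for 12600 genes. A gene stands by its probe set of highest mean over the 8 polysomal arrays. The tests were made in limma 3.58.1 under R 4.3.3 (lmFit, contrasts.fit, eBayes, 2-sided), on 8 polysomal arrays with 4 residual degrees of freedom or, against total RNA, on 16 arrays with 8. Adjustment was by Benjamini-Hochberg across every kept probe set, at a threshold of 0.05. The study compared means without a test. Summaries used pandas 2.3.3 and numpy 2.4.6 in Python 3.11.15, and figures matplotlib 3.10.9.

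Genes are named by a rule: the 15 largest increases and decreases past the threshold without overlap of arrays, up to 4 members of each of 33 gene lists, the 8 largest differences of each sign against total RNA and against E1KD cells, and genes the study names. The gene lists, the comparison and its members were chosen with earlier results of these data known. Lists are described by counts and medians, with no set test. Promoter windows, from 250 bases before to 50 after a start, are from RefSeq on GRCm38.p6, and 10177 of the 12600 genes have one. Monosomal and immunoprecipitation arrays were left out of the comparisons and entered the filter on low values, and monosomal arrays also an alternative fit of 24 arrays. Alternatives were other sets of arrays in the fit, filters, scalings, an intensity trend, a replicate block, the median probe set, a fold limit, leaving out each array and, added after their levels were seen, poly-A control scaling.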

Additional observations from a re-analysis of the deposited data

Results flagged for a closer look

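The following results stand out because a difference between conditions was itself past the threshold. Polysomal less total, the TGFβ change in NMuMG cells was 4.02 for S100a8, 3.12 for S100a9, 2.48 for Mcpt8, 2.40 for Bnc1, 2.27 for Bcl2l15, 2.12 for Csf2, 2.10 for Flacc1 and 2.05 for Smc5. On the other side it was -2.94 for Gja1, -2.40 for Hs6st2, -2.24 for Cyp1b1, -2.21 for Nrp1, -2.19 for Slx1b, -2.13 for Ackr3, -1.92 for Dock11 and -1.92 for Creld1. For Nrp1 the median over its probe sets was far smaller, as given above.

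Between NMuMG and E1KD cells, the polysomal TGFβ change differed by 5.40 for S100a8, 3.37 for Csf2, 3.32 for Bcl2l15, 3.28 for Klhl30, 3.03 for Flacc1, 2.74 for Prdx4, 2.62 for Krt7 and 2.54 for Bnc1. It differed by -3.44 for Egr1, -3.02 for Nrp1, -2.96 for Slx1b, -2.96 for Cxcl5, -2.44 for Hs6st2, -2.35 for Lcn2, -2.31 for Btbd11 and -2.23 for Cyp1b1.

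The bacterial poly-A RNAs entered no main fit and served only for an alternative scaling. They were lower by 0.97 on average in the TGFβ-treated NMuMG polysomal arrays than in the untreated ones (difference -0.97), with no overlap between the groups.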

How the results depend on the processing

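The polysomal TGFβ change of NMuMG cells passed for 4953 probe sets. This count was 2748 with the 4 arrays fitted alone, 8683 with 16 arrays in the fit and 7646 with 24, and 1587 probe sets changed by at least 2-fold without a test. It ran from 1489 to 4906 when 1 array was left out (lowest without the second TGFβ array). Other filters, scalings and the intensity trend gave 3514 to 7157. For polysomal less total RNA, 4063 probe sets passed, with 2677 on the arrays compared alone, 699 after Actb and Gapdh scaling, 359 after poly-A scaling (all higher), 1277 by a fold of at least 2, and 2239 to 5712 when 1 array was left out. For NMuMG less E1KD, 1040 passed, with 5078 on 16 arrays, 4040 on 24, 361 without a filter, 451 after Actb and Gapdh scaling, 83 after poly-A scaling, 3187 with an intensity trend, 1663 by a fold of at least 2, and 1 to 1348 when 1 array was left out. The causes of these shifts were not tested.

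The replicate numbers were not taken to pair the arrays. Deviations of same-numbered untreated and treated arrays correlated at 0.0031 in the NMuMG polysomal pool, 0.126 in that of E1KD cells and 0.29 in NMuMG total RNA, and those of the untreated NMuMG polysomal arrays at -0.19 to -0.15 with the E1KD polysomal and NMuMG total arrays. Control levels of the E1KD polysomal arrays did go with the replicate number. Untreated and treated, the hybridization controls were at 12.09 and 12.02 in the first replicates and 11.36 and 11.48 in the second. The poly-A RNAs were at 12.19 and 12.13 in the first and 11.25 and 11.33 in the second. With the replicate number as a block 3931, 3874 and 272 probe sets passed, the last (NMuMG less E1KD) against 1040 without it, or 108 genes higher and 62 lower against 366 and 235. Named genes that did not pass with the block were Hsp90aa1, P4hb and S100a4 for the polysomal change and Bnc1 and Cyp1b1 between lines.

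Poly-A scaling, which adds 0.97 to each polysomal change by construction, turned decreases into increases for Asns (0.12), Atf3 (0.11), Ddost (0.16), Hmox1 (0.074), Hsp90aa1 (0.35), Hyou1 (0.054), Mvd (0.014), P4hb (0.47), Phgdh (0.34), Plaur (0.13), Ppp1r15a (0.034), Prdx4 (0.34), Rpn2 (0.054), Shmt2 (0.064), Slc7a5 (0.32), Trib3 (0.13) and Vldlr (0.22). By the median of their probe sets Hsp90aa1 (0.44), Kif11 (0.12) and Mrpl47 (-0.21) changed sign. Over the genes named and the alternatives run, 2235 values of the polysomal change kept their sign and side of the threshold, 162 fell short of it, 13 passed it newly and 20 changed sign. For polysomal less total these were 369, 11, 0 and 0, and between lines 220, 84, 0 and 0.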
